A study of Gallus gallus with 4 samples.

Results

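The fibrils of cartilage are built from collagens II, IX and XI, and the genes for their chains were read from 4 expression arrays of embryonic chicken tibia. Of 6 listed genes, 5 (COL2A1, COL9A1, COL9A2, COL9A3 and COL11A1) had probe sets whose platform annotation gave that symbol alone; values of COL11A2 were not analysed here. These were 18 of the 38535 probe sets on the array and 5 of 13009 annotated genes, with 5 probe sets for COL2A1, 3 for COL9A1, 1 for COL9A2, 4 for COL9A3 and 5 for COL11A1. For these genes the probe sets were taken by annotation and not by any measured value. The gene list itself was chosen with earlier results of these data known.

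The tissue came from tibiae of white leghorn embryos, cut so that 1 sample held transient cartilage alone (TC, the cartilage that bone later replaces) and the other held articular cartilage and part of the transient cartilage (TC+AC). Embryos were used on day 12 of development (E12; stage 38 of Hamburger and Hamilton) or on day 14 (E14; stage 40), with 1 array for each of the 4 combinations and the tissue of many embryos pooled; the labels name no genetic change or treatment. No group had a replicate, so the only estimate of error came from a model over all 4 arrays, and the number of arrays limits the precision. TC+AC holds both kinds of cartilage, and fewer cells of a type and less RNA per cell cannot be told apart in such bulk samples.

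Collagen II, a homotrimer of the COL2A1 chain, forms the bulk of the cartilage fibril and is the classical product of chondrocytes. Collagen XI, with chains from COL11A1, COL11A2 and COL2A1, lies within the fibril and limits its width. Collagen IX, assembled from the chains of COL9A1, COL9A2 and COL9A3, sits on the fibril surface, where it links fibrils to other matrix molecules. SOX9, with SOX5 and SOX6, drives these genes in chondrocytes.

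Values are quantile normalized intensities, so that all arrays share a single distribution, and differences are on the log2 scale unless a fold is named. A value was called above background where it passed the 95th percentile of the 541 virus probe sets of its array, which lay between 15.6 and 24.6. Of the 18 probe sets, 13 were above background on all 4 arrays, 3 on some and 2 on none. The TC+AC E14 array stood apart before any result: its median deposited intensity was 13.1 against 20.6 to 23.1 on the others. Its 3' over 5' intensity ratio was 7.48 against 1.99 to 4.01 for beta-actin and 3.97 against 1.45 to 1.64 for EF1A. For GAPDH the ratio was 1.59, close to the 1.18 to 1.55 of the others. The lowest ratios for beta-actin (1.99) and EF1A (1.45) were those of TC at E14, whose GAPDH ratio, 1.515, was not the lowest. The part of these ratios in the differences between arrays, or between probe sets of a gene, was not tested. Chondrocyte markers were present in every sample: of 11 found on the array, 11 were above background in TC at E14 and 10 on each of the other arrays, and their summed level was 8208 (E12) and 31409 (E14) in TC, and 4885 and 9572 in TC+AC.

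**Figure D1:**
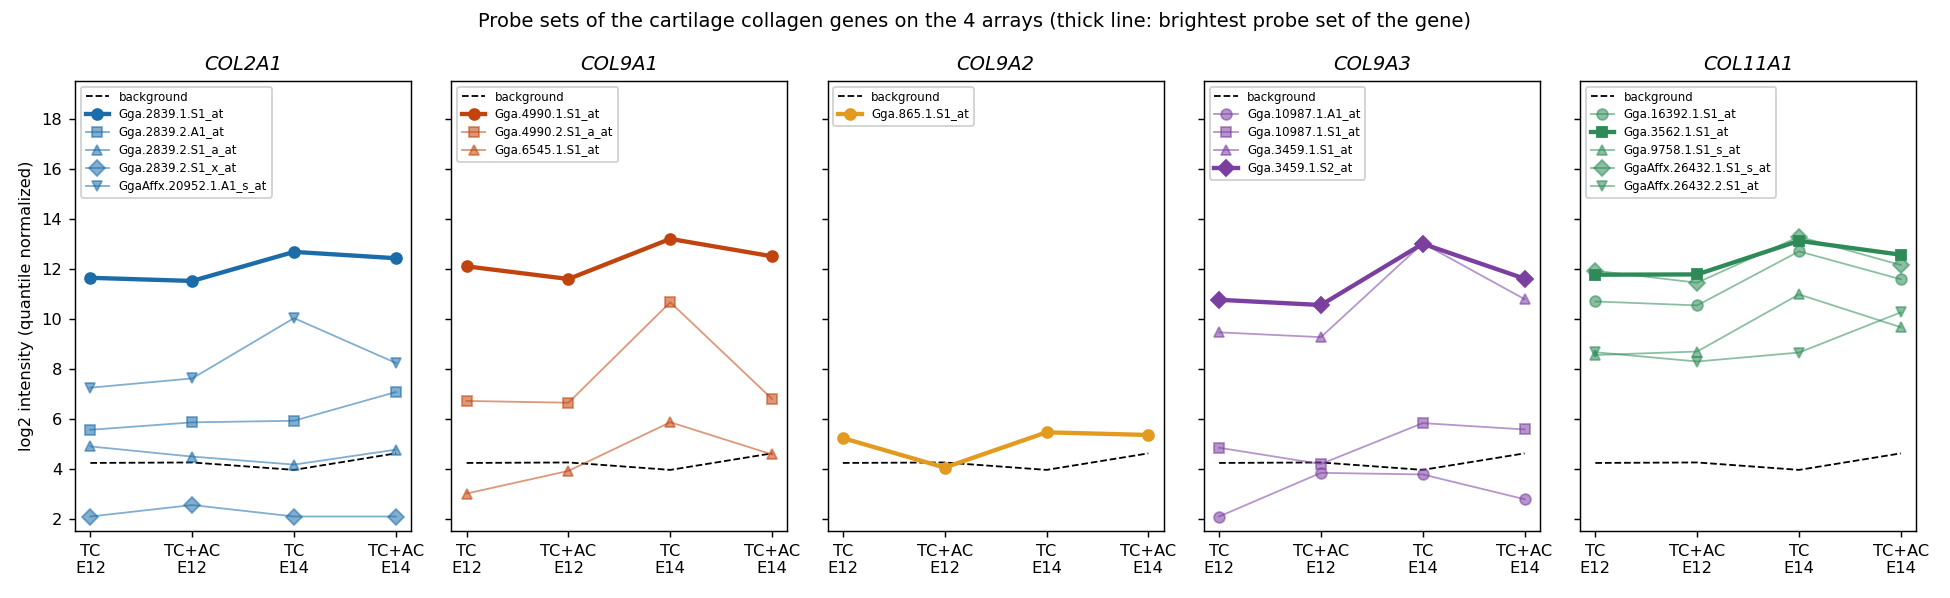
Log2 quantile normalized intensity (vertical axis) of each of the 18 probe sets on the 4 arrays (horizontal axis), 1 panel per gene. The thick line is the brightest probe set of the gene, and the dashed line is the background of each array. The thick lines are highest in TC at E14 in all 5 panels, whereas 1 probe set of COL11A1 and 1 of COL2A1 that lie above background peak in TC+AC at E14 after this normalization.

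COL2A1 was read by 5 probe sets, of which 1 was very bright. That probe set (Gga.2839.1.S1_at) had normalized intensities of 3182 (E12) and 6527 (E14) in TC, and of 2916 and 5475 in TC+AC. Both E14 samples were above both E12 samples, and the tissues lay close together at each stage. The second probe set (GgaAffx.20952.1.A1_s_at) had 151.6 and 1042 in TC, and 195.9 and 300.8 in TC+AC, so that TC at E14 was 6.87-fold above TC at E12 and 3.46-fold above TC+AC at E14. Gga.2839.2.A1_at had 47.2 and 60.6 in TC, 58.0 and 134.4 in TC+AC, and was highest in TC+AC at E14 after quantile normalization but not as deposited, where TC+AC minus TC at E14 was -0.12. The suffix _s marks a probe set that can match more than 1 transcript, and no source used here gives which part of the COL2A1 transcript each one reads. The remaining pair gave little: Gga.2839.2.S1_a_at lay between 18.0 and 29.8, just above background, and Gga.2839.2.S1_x_at was below background on every array.

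The collagen IX genes did not give a single picture. COL9A1 on its brightest probe set (Gga.4990.1.S1_at) had 4371 (E12) and 9355 (E14) in TC, and 3079 and 5772 in TC+AC. TC was above TC+AC at both stages, and after quantile normalization each E14 sample was above both E12 samples. As deposited, TC+AC at E14 (4248) was below TC at E12 (4807). A dimmer probe set of the same gene (Gga.4990.2.S1_a_at) had 105.0 and 1617 in TC, and 100 and 110.9 in TC+AC. It thus stood out in TC at E14 alone, at 15.4-fold over TC at E12 and 14.6-fold over TC+AC at E14, while the other 3 samples lay within 1.11-fold of each other. COL9A1 is known to be transcribed from alternative starts into a long and a short form, but no source used here gives which form these probe sets read. The third probe set (Gga.6545.1.S1_at) passed the background of its array only in the TC E14 sample, at 58.2, and there at least 3.09-fold over TC at E12.

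COL9A3 had the largest stage difference of the 5 genes in TC and in the fit, though not in TC+AC, on the probe sets that stood for the genes. Its brightest probe set (Gga.3459.1.S2_at) had 1731 (E12) and 8174 (E14) in TC, and 1497 and 3105 in TC+AC. A second bright one (Gga.3459.1.S1_at) had 702.3 and 8278 in TC, and 614.7 and 1760 in TC+AC. On both, the E12 tissues were within 1.16-fold of each other, TC+AC at E14 came next and TC at E14 was highest. The E14 value in TC was 4.72-fold and 11.8-fold that at E12 on these probe sets, and in TC+AC 2.07-fold and 2.86-fold. Of the dim pair named alike but for the letter A or S, Gga.10987.1.A1_at was below background throughout, and Gga.10987.1.S1_at had 28.7 and 56.8 in TC, and 18.3 and 47.6 in TC+AC, of which the first was below background.

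COL9A2 was dim on its only probe set (Gga.865.1.S1_at), with 37.5 (E12) and 44.0 (E14) in TC, and 16.6 and 40.9 in TC+AC. The TC+AC E12 value was below background, so TC was at least 1.96-fold higher there, while the other 3 samples lay close together after quantile normalization. As deposited, TC+AC minus TC at E14 was -1.13 on the log2 scale. The pattern differed from that of its partner chains: TC at E14 was only 1.17-fold above TC at E12. A dim signal does not show that the transcript is rare, since probe sets differ in how strongly they respond.

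COL11A1 was read by 5 probe sets, all above background on every array. The brightest (Gga.3562.1.S1_at) had 3468 (E12) and 8855 (E14) in TC, and 3494 and 6033 in TC+AC. GgaAffx.26432.1.S1_s_at had 3868 and 9950 in TC, and 2778 and 4529 in TC+AC. Gga.16392.1.S1_at had 1653 and 6618 in TC, and 1481 and 3057 in TC+AC. On these 3 the order of the stages was the same after quantile normalization, with TC at E14 highest and TC+AC at E14 second. As deposited, GgaAffx.26432.1.S1_s_at was lowest in TC+AC at E14, at 3051, with 3644 in TC+AC at E12. Gga.9758.1.S1_s_at followed with 374.8 and 2010 in TC, and 412.8 and 808.5 in TC+AC. GgaAffx.26432.2.S1_at went another way, with 404.5 and 401.4 in TC, and 313.1 and 1223 in TC+AC: the 2 TC samples were equal within 1.01-fold and TC+AC at E14 was highest, 3.05-fold above TC at E14. That log2 difference, 1.61, was 0.44 as deposited and -0.13 with scaling on hybridization controls. The other 4 probe sets of COL11A1 were lower in TC+AC at E14, by 1.47-fold to 2.49-fold against TC.

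From E12 to E14 the 5 genes had higher values in both tissues, as did 20.7% of all genes tested, but none passed the test. The test was limma's additive model of tissue and stage on the brightest probe set of each gene, fitted to 7805 genes, with Benjamini-Hochberg adjusted p below 0.05. COL9A3 had the largest fitted stage difference, 1.65 ± 0.51 (SE, 4 arrays, limma adjusted p = 0.26, unadjusted p = 0.0031). COL11A1 had 1.07 ± 0.50 (limma adjusted p = 0.68), COL9A1 1.0 ± 0.50 (0.74), COL2A1 0.97 ± 0.50 (0.77) and COL9A2 0.77 ± 0.51 (0.90). Among all tested genes, 0.256% passed for stage. At an unadjusted p under 0.05, limma called 2 of the 5 genes higher at E14, COL9A3 and COL11A1, against 2.66% of all genes. The intervals are wide: at 95% confidence the stage difference of COL2A1 lay between -0.04 and 1.99, and that of COL9A3 between 0.61 and 2.69. The model has 1 residual degree of freedom per gene, and its error is mostly a prior shared across genes, so it holds nothing on the spread between pools of embryos.

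By size alone, the stage differences of the members lay high among the genes tested. The median fitted stage difference of the 5 genes was 1.0, where that of all 7805 was -0.12. In TC, 4 of the 5 genes were at least 2-fold higher at E14 than at E12, against 8.3% of all genes, and their differences ran from 0.23 for COL9A2 to 2.24 for COL9A3. In TC+AC, 2 of the 5 were at least 2-fold higher, COL9A2 and COL9A3, against 4.71%, with differences from 0.79 for COL11A1 to 1.30 for COL9A2. COL9A2 had the smallest difference in TC and the largest in TC+AC, where its E12 value was below background. Against the background it was at least 2.14-fold higher after quantile normalization, but as deposited the log2 difference was only 0.33. COL9A3 alone was at least 2-fold higher in both tissues, against 0.897% of all genes. All 5 genes were highest in TC at E14 after quantile normalization, as were 30.3% of all genes. With arrays set to the same median, COL2A1 and COL11A1 were higher in TC+AC than in TC at E14, by 0.28 and 0.04. These comparisons share arrays and are not independent of each other, and with 1 array a group there is no test within a tissue.

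**Figure D2:**
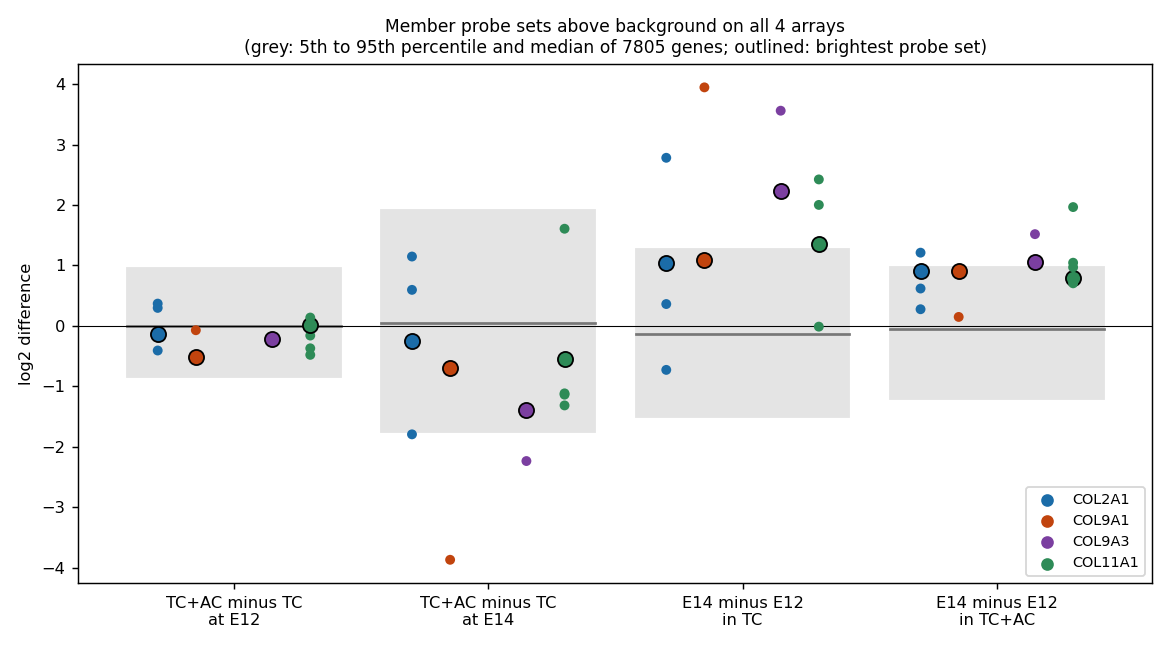
Log2 differences (vertical axis) of the 13 member probe sets that were above background on all 4 arrays, for the 4 pairwise comparisons (horizontal axis); outlined points are the brightest probe sets, and grey bands span the 5th to 95th percentile of 7805 genes with their median. The outlined points lie between 1.04 and 2.24 for E14 minus E12 in TC, and between -0.51 and 0.01 for TC+AC minus TC at E12.

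Between the tissues the members did not pass either. Fitted over both stages, TC+AC minus TC was -0.80 ± 0.51 for COL9A3 (SE, 4 arrays, limma adjusted p = 0.52), -0.64 ± 0.51 for COL9A2 (0.64), -0.60 ± 0.50 for COL9A1 (0.66), -0.27 ± 0.50 for COL11A1 (0.87) and -0.19 ± 0.50 for COL2A1 (0.92). By limma, 0 of the 5 genes passed, against 1.47% of all genes; at an unadjusted p under 0.05 limma also called 0, where 7.98% of all genes were higher and 5.42% lower in TC+AC. At 95% confidence the tissue difference of COL2A1 lay between -1.20 and 0.83, which leaves room for more than a 2-fold deficit in TC+AC. At E12, COL2A1 (-0.13), COL9A3 (-0.21) and COL11A1 (0.01) differed little between the tissues, and COL9A2, below background in TC+AC, has the bound given above. Except for COL11A1 at E12, the levels after quantile normalization were lower in TC+AC at both stages (4 of 5 genes, and 29.4% of all genes). That count depends on the scaling, since COL2A1 at E12 had 0.15 as deposited and 0.01 with arrays set to the same median. At E14 all 5 were lower, against 48.1% of all genes, with -0.25 for COL2A1, -0.55 for COL11A1, -0.70 for COL9A1, -0.11 for COL9A2 and -1.40 for COL9A3; COL9A3 was the only 1 of the 5 genes at least 2-fold lower, a fold that 15.6% of all genes reached. Of the 16 member probe sets bright enough for a fit of single probe sets, 8 were at least 2-fold lower in TC+AC at E14, against 21.7% of 16301 probe sets. The 8 include Gga.6545.1.S1_at, which passed background only in TC at E14, and several read the same gene. Another 2 were at least 2-fold higher, against 18%. The 2, Gga.2839.2.A1_at of COL2A1 and GgaAffx.26432.2.S1_at of COL11A1, did not reach 2-fold as deposited.

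How the arrays were scaled bore on TC+AC at E14 more than on the other samples. With intensities as deposited, the change from E12 to E14 in TC+AC was between 0.02 for COL11A1 and 0.33 for COL9A2, while the median of all genes was -1.34. After quantile normalization that median was -0.05 and the members lay between 0.79 and 1.30. The members thus lay above the median gene under both, although the deposited intensities themselves hardly differed between the stages. As deposited, 0 of the 5 genes were at least 2-fold higher in TC+AC (0.102% of all genes), 2 were in TC (COL9A3 and COL11A1, 9.62%), and the 3 collagen IX genes were at least 2-fold lower in TC+AC than TC at E14 (53.7%). In TC the 5 genes were higher at E14 under each of 4 scalings, with COL9A3 between 1.72 and 2.35 and COL2A1 between 0.61 and 1.24. For TC+AC minus TC at E14, COL2A1 and COL11A1 changed sign with the scaling, at 0.28 and 0.04 where arrays were set to the same median, with the median gene at -0.27. As deposited, COL2A1 (-0.54), COL11A1 (-0.78) and COL9A1 (-1.03) lay above the median gene at -1.09, COL9A1 only just. COL9A2 (-1.13) lay just below that median. After quantile normalization all of them lay below the median gene. Single probe sets turned more often. Of the 13 above background on all arrays, 13 were higher at E14 in TC+AC after quantile normalization, where 53.2% of all genes were lower. At a common median 11 were higher, on hybridization controls 8 and as deposited 7, where the median gene had -0.55, -1.19 and -1.34. The shares of all genes were not counted there, so these counts cannot be compared between scalings. All 13 lay above the median gene under each of the 4 scalings. Apart from quantile normalization, these scalings differ only by a factor for each array, which moves the median gene and the members alike. A position against the median gene that is kept among them holds no added information. Those lower at E14 in TC+AC as deposited were Gga.4990.2.S1_a_at of COL9A1 (-1.19) and, for COL2A1, GgaAffx.20952.1.A1_s_at (-0.80), Gga.2839.2.S1_a_at (-0.60) and Gga.2839.2.A1_at (-0.12). For COL11A1 they were Gga.9758.1.S1_s_at (-0.41) and GgaAffx.26432.1.S1_s_at (-0.26). For TC+AC minus TC at E14 after quantile normalization, 2 of the 13 were at least 2-fold higher and 7 at least 2-fold lower. Among 16301 probe sets these shares were 18% and 21.7%. As deposited, 0 of the 13 were at least 2-fold higher and 8 at least 2-fold lower. Since 53.7% of all genes were at least 2-fold lower as deposited, the 8 say little about the members. COL9A3 was below the median gene in that comparison under all 4 scalings, at -1.40, -1.0, -1.81 and -2.38. Here too, agreement among the scalings other than quantile normalization holds no added information.

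**Figure D3:**
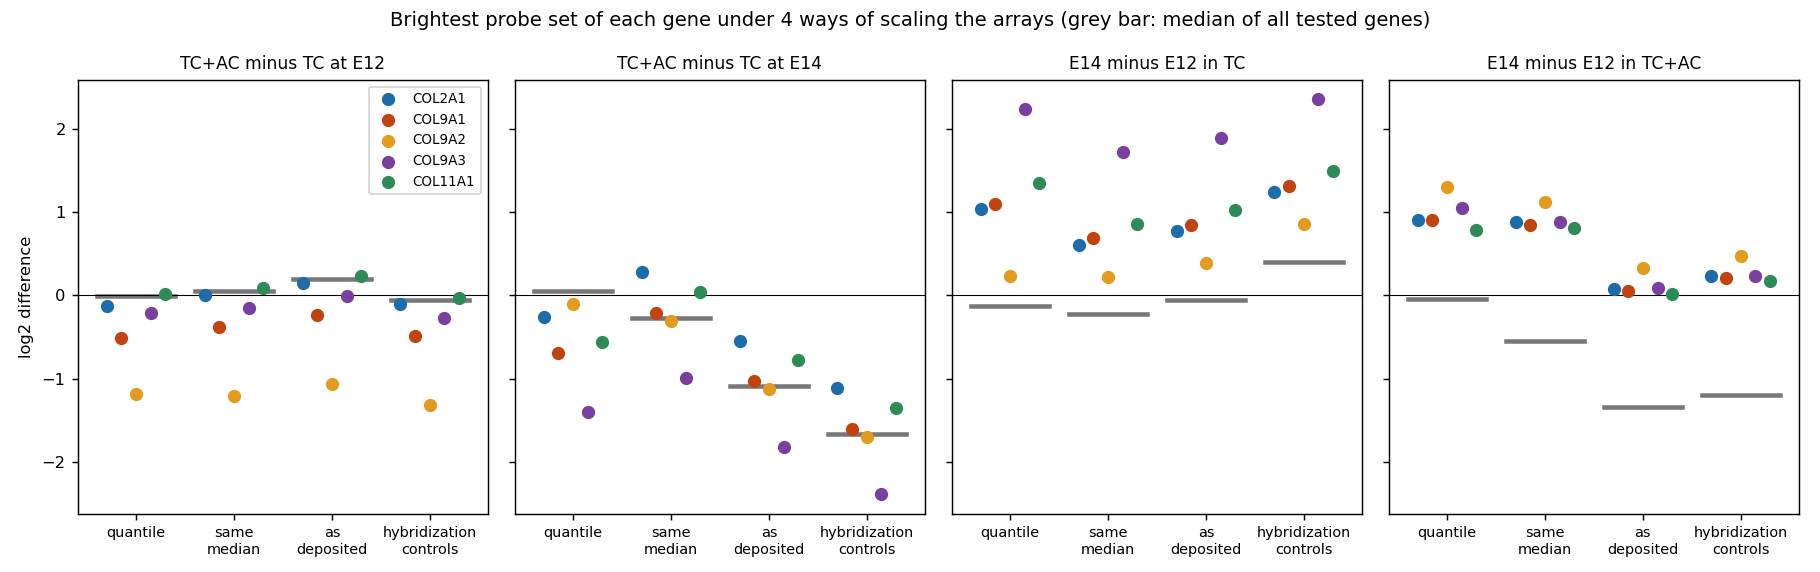
Log2 difference (vertical axis) of the brightest probe set of each gene in the 4 pairwise comparisons, under quantile normalization, a common median, no scaling and scaling on hybridization controls (horizontal axis); grey bars are the medians of all tested genes. In TC+AC the members lie near 0 for E14 minus E12 as deposited, with the median gene at -1.34, and COL2A1 and COL11A1 cross 0 between scalings for TC+AC minus TC at E14.

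Probe sets of the same gene differed in the size of their change. In COL2A1, COL9A1 and COL9A3 the brightest had a clearly smaller difference than the next. From E12 to E14 in TC, the brightest probe set of COL9A1 had 1.10 and the dimmer Gga.4990.2.S1_a_at had 3.94. COL9A3 had 2.24 on the brightest and 3.56 on Gga.3459.1.S1_at. In COL11A1 the difference was 1.35 and 1.36 on the 2 brightest, then 2.0 and 2.42, and -0.01 on the dimmest, GgaAffx.26432.2.S1_at. In COL2A1 it was 1.04 on the brightest, 2.78 on the next and 0.36 and -0.73 on the dimmest of the 4 above background. The brightest probe sets of COL9A1 and COL11A1 ranked 13 and 18 from the top of the TC E14 array, where the normalized scale ends at a log2 value of 13.54. Little range was thus left above their log2 values of 13.19 and 13.11; the part of this limit in the smaller changes was not tested. Of the 16 member probe sets bright enough to be fitted singly, 13 were highest in TC at E14 (33.2% of all probe sets). At least 2-fold higher there than in TC at E12 were 11 (12.3%). Both counts include Gga.6545.1.S1_at, which passed background only in TC at E14. The 16 read 5 genes on the same 4 arrays, so counts of them are not counts of independent members. When each probe set was tested on its own, limma called 0 of the 16 and 0 of all 16301 (0%) for stage. At an unadjusted p under 0.05 it called 7 of the 16 higher at E14, against 2.19% of all. Gga.6545.1.S1_at was among the 7, and several of these read the same gene. For tissue, limma called 0 by adjusted p. At an unadjusted p under 0.05 it called only Gga.4990.2.S1_a_at of COL9A1, lower in TC+AC (-1.97 ± 0.84, limma adjusted p = 0.61), against 4.36% of all in that direction.

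**Figure D4:**
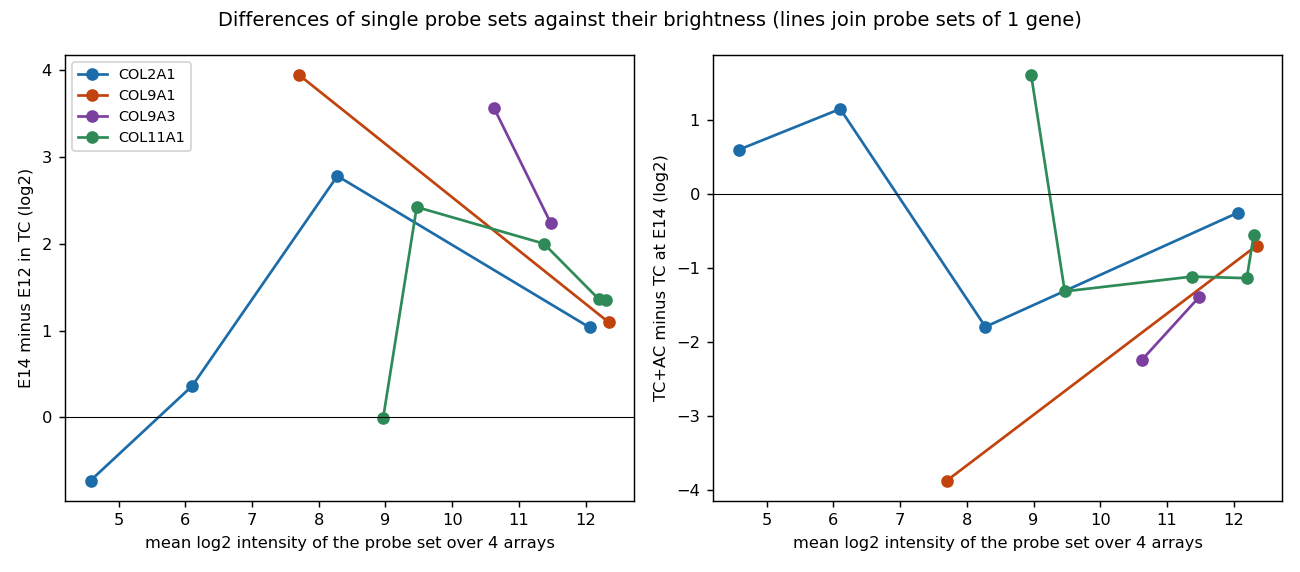
Log2 difference of single probe sets (vertical axes: E14 minus E12 in TC on the left, TC+AC minus TC at E14 on the right) against their mean log2 intensity over the 4 arrays (horizontal axes), for the 13 probe sets above background throughout; lines join probe sets of 1 gene, and COL9A2 is not drawn. For COL9A1 the dimmer probe set lies at 3.94 and the brighter at 1.10 on the left.

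As a measure of likeness, each gene's log2 levels were centred on their mean over the 4 arrays, and the Euclidean distance between 2 such profiles was taken. COL2A1 and COL11A1 were closest among the members, at 0.25. From COL11A1, COL2A1 ranked 16 of 7804 genes, and from COL2A1, COL11A1 ranked 25. COL9A1 lay 0.39 from COL11A1 (rank 57 from COL9A1) and 0.41 from COL2A1 (rank 74). Among the members COL9A1 was the nearest to COL9A2 (0.68) and to COL9A3 (0.84), the latter close to COL11A1, also at 0.84. COL9A3 and COL9A2 were the farthest pair, 1.44 apart. From COL9A2, COL9A3 ranked 3879 of 7804, near the middle of all genes, but from COL9A3, COL9A2 ranked 900. The COL9A2 profile includes a TC+AC E12 value of 16.6, below background. COL9A1 was itself the nearest gene to the mean profile of the members (0.13), a mean that includes COL9A1. The 5 nearest genes that are not members were MED13 (distance 0.16), ECM2 (0.17), ENTPD4 (0.20), PHF3 (0.23) and WRB (0.23). With 4 arrays, a small distance says only that the order and spacing of 4 values were alike.

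Genes for the matrix partners of the fibrils had calls where the collagens, read on their brightest probe sets, had none. The difference between the list and the collagens was not tested. Over all tested genes, 0.256% passed for stage and 1.47% for tissue. Of 21 tested fibril partner and proteoglycan genes, 5 rose from E12 to E14 (limma adjusted p below 0.05) and 0 fell, and their median fitted stage difference was 0.78, where that of all genes was -0.12. MATN3, a matrilin gene, rose by 3.02 ± 0.51 (limma adjusted p = 0.0098), COMP, a collagen-binding glycoprotein, by 2.83 ± 0.60, ACAN, the aggrecan core protein, by 2.71 ± 0.55 and CHADL, a collagen-binding leucine-rich protein, by 2.39 ± 0.50 (limma adjusted p = 0.031 each). SNORC, a chondrocyte surface proteoglycan, rose by 2.26 ± 0.50 (limma adjusted p = 0.043). These values are fitted over both tissues, and for all 5 genes the stage difference was larger in TC than in TC+AC. For COMP it was 4.63 in TC and 1.03 in TC+AC. For tissue, FMOD, which encodes the fibril-binding fibromodulin, was higher in TC+AC (2.45 ± 0.50, limma adjusted p = 0.0051) and MATN1, a cartilage matrilin gene, lower (-1.93 ± 0.50, limma adjusted p = 0.044), with a list median of -0.34. ACAN, on its brightest probe set, had 340.0 and 5234 in TC, and 230.4 and 641.1 in TC+AC, again highest in TC at E14. The calls depended on the processing: by limma 0 of all genes passed for stage with intensities as deposited (370 at an unadjusted p under 0.05), and 0 passed for tissue or stage with no dim filter (715 and 567 unadjusted).

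The machinery that makes collagen had 1 call. Since 1.47% of all genes passed for tissue and 0.256% for stage, 0 calls in a short list says little. Of 30 tested genes of collagen synthesis and processing, PCOLCE2, an enhancer of procollagen cleavage, was lower in TC+AC (-3.83 ± 0.53, limma adjusted p = 4.5e-05; its TC+AC E12 value of 17.2 was below background, so the size is not exact), 0 were higher and 0 changed with stage by limma; list medians were -0.50 for tissue and 0.53 for stage. PLOD2, a collagen lysyl hydroxylase, had the largest stage difference at 1.74 ± 0.51 (limma adjusted p = 0.23), and LOXL4, a lysyl oxidase family member, the lowest at -0.97 ± 0.54. Of 13 tested transcription factor genes, 0 passed for tissue or stage by limma, with medians of -0.20 and 0.56. SOX5 had a stage difference of 1.62 ± 0.52 (limma adjusted p = 0.30) and SOX9 of 1.37 ± 0.52 (limma adjusted p = 0.47), and for both the difference was larger in TC (2.48 and 2.20) than in TC+AC (0.75 and 0.54). SOX6 was among the dim genes left out. The lowest stage difference of this list was that of ARID5B (-0.71 ± 0.50, limma adjusted p = 0.91). Tissue differences ran from -1.75 ± 0.54 for MEF2C to 1.34 ± 0.50 for NKX3-2 (limma adjusted p = 0.11 and 0.19). MEF2C was below background in TC+AC at E14, at 12.4.

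Other collagen genes were spread in both directions. The shares of all genes that passed, 1.47% for tissue and 0.256% for stage, apply to the lists here too. Of 27 tested, COL10A1, the collagen gene of hypertrophic chondrocytes, was lower in TC+AC (-3.63 ± 0.50, limma adjusted p = 3.6e-05) and COL15A1, a collagen gene of basement membrane zones, rose with stage (3.71 ± 0.59, limma adjusted p = 0.0066; below background in TC at E12), with medians of 0.40 for tissue and 0.29 for stage. COL27A1, a fibrillar collagen gene of cartilage, had a stage difference of 1.69 ± 0.51 (limma adjusted p = 0.24), and COL5A2, a chain of the collagen V of other fibrous tissues, -1.03 ± 0.50 (limma adjusted p = 0.71). Of 15 tested receptor and protease genes 0 passed for either by limma, with medians of 0.30 and 0.20; CTSK, the collagen-cleaving cathepsin K, had a tissue difference of 1.62 ± 0.51 (limma adjusted p = 0.11). At an unadjusted p under 0.05, 13.4% of all genes passed for tissue and 6.91% for stage.

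**Figure D5:**
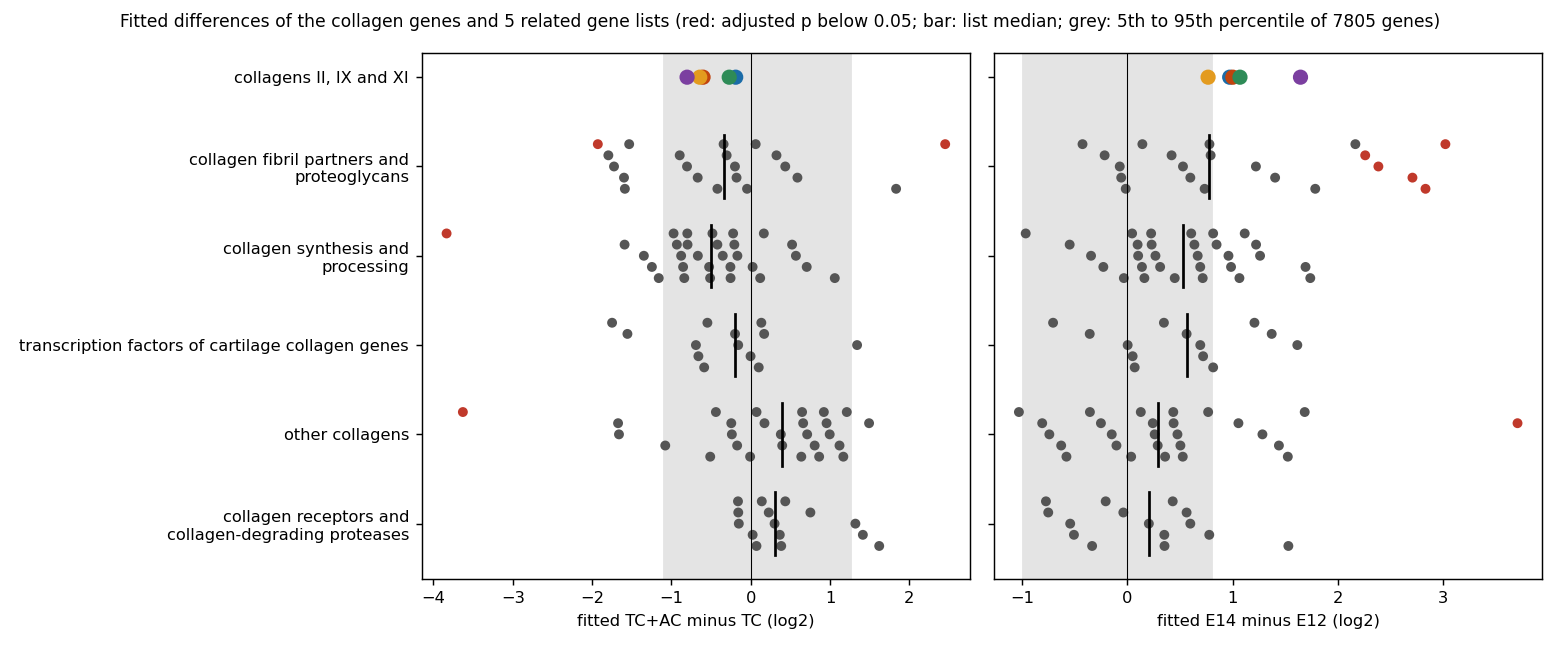
Fitted log2 differences for tissue (left) and stage (right) of the 5 collagen genes and of the tested genes of 5 related lists (rows); red points had a limma adjusted p below 0.05, black bars are list medians and grey bands span the 5th to 95th percentile of 7805 genes. The collagen genes lie between 0.77 and 1.65 for stage, below the 5 red points of the fibril partner list.

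Markers of other tissues moved between the samples in which the collagens differed. The summed level of 12 muscle genes found on the array was 1028 (E12) and 212 (E14) in TC, and 816 and 769 in TC+AC. That of 10 red cell genes was 18141 and 9204 in TC, and 19320 and 18646 in TC+AC. That of 14 endothelial genes was 1288 and 663, then 1046 and 1049, and that of 10 leukocyte genes 1285 and 670, then 1277 and 1111. All 4 sums were lowest in TC at E14, the sample in which the 5 collagen genes were highest after quantile normalization. The summed level of 11 hypertrophic and bone genes was 10584 and 7153 in TC, and 1159 and 1188 in TC+AC. That of 19 fibrous and tendon genes was 40971 and 40345 in TC, and 45067 and 47818 in TC+AC. No marker of these lists was at 0 on any array; above background were 4 of the 12 muscle genes in TC at E14 and 7 to 9 on the other arrays, and at least 7 of 10 leukocyte, 10 of 14 endothelial, 9 of 10 red cell, 9 of 11 hypertrophic and bone, and 19 of 19 fibrous genes on every array. The part of these tissues in the collagen values was not tested.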

How the data were processed

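Total RNA, 5 µg per sample per the labels, was hybridized to Affymetrix chicken arrays. The authors deposited linear intensities, 1 per probe set and array; no source used here gives how they were summarised, background-corrected or scaled. R 4.3.3, limma 3.58.1, Python 3.11.15 and matplotlib 3.10.9 were used. Without the 96 control probe sets, the other 38439 were quantile normalized, floored at the 20th percentile of all values (4.275) and taken to log2. The probe set with the highest mean stood for each gene, and the dimmest 40% of genes were dropped, leaving 7805. limma's lmFit and eBayes took tissue and stage as additive effects over the 4 arrays, and the prior supplied 27.0 of 28.0 degrees of freedom. The code of the fit was run on simulated data with additive changes and independent noise of the same size for every gene. That run checks the code and holds nothing on how the fit behaves on these arrays.

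Where 1 side of a difference was at or below background, the fold is a bound with background in its place. Named genes are all members and, per list, the calls and some of the genes with the largest fitted differences. Of 248 list entries, 213 were found by symbol. The members and lists were chosen with earlier results of these data known. Alternatives covered scaling, floor, dim filter, probe set choice, a model with 1 factor and leaving out each array.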

Additional observations from a re-analysis of the deposited data

Results flagged for a closer look

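With 1 array per group, the differences below were listed because their direction turned between the stages or between the tissues on a probe set above background on all 4 arrays; the difference between them was not tested, and the values are those after quantile normalization. For TC+AC minus TC, GgaAffx.26432.2.S1_at of COL11A1 went from -0.37 at E12 to 1.61 at E14 on the log2 scale, and from E12 to E14 the same probe set had -0.01 in TC and 1.97 in TC+AC. Gga.9758.1.S1_s_at of COL11A1 had 0.14 at E12 and -1.31 at E14, and the brightest probe set, Gga.3562.1.S1_at, had 0.01 and -0.55. For COL2A1, GgaAffx.20952.1.A1_s_at had 0.37 at E12 and -1.79 at E14, and Gga.2839.2.S1_a_at had -0.41 and 0.60, with -0.73 in TC and 0.28 in TC+AC from E12 to E14. Under 4 scalings, only the turns of Gga.9758.1.S1_s_at and GgaAffx.20952.1.A1_s_at were present in each. As deposited, Gga.2839.2.S1_a_at did not turn (-0.26 and -0.29 between the tissues, -0.57 and -0.60 between the stages), nor did the stage difference of GgaAffx.26432.2.S1_at (0.02 and 0.62). On hybridization controls, GgaAffx.26432.2.S1_at had -0.42 and -0.13 between the tissues, and Gga.3562.1.S1_at -0.03 and -1.35.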

How the results depend on the processing

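The stage differences of the 5 genes kept their sign under all 13 alternatives (12 for COL9A2, which was too dim for 1), from 0.18 to 2.34, and none passed except COL9A3 with no floor and 16 added before log2 (1 gene; 1.64, limma adjusted p = 0.038). Among the alternatives, the changes of dim filter, the test of single probe sets and the model with 1 factor could not change a fitted difference. A kept sign under those holds no information. The tissue differences were less stable. That of COL2A1 turned to 0.14 and that of COL11A1 to 0.07 with arrays set to the same median, and that of COL2A1 to 0.03 with the mean of all probe sets. Leaving out 1 array also meant a model with tissue or stage alone, since both terms on 3 arrays leave no residual degree of freedom; stage differences then enter the tissue values, and the effect of the array cannot be told apart from that of the dropped term. These fits gave tissue values of -0.71 to 0.33 for COL2A1, -1.15 to -0.05 for COL9A1, -1.29 to 0.01 for COL9A2, -1.92 to 0.32 for COL9A3 and -0.95 to 0.40 for COL11A1. Without TC+AC at E12, COL2A1 had 0.26, COL11A1 0.12 and COL9A2 0.01; without TC at E14, COL2A1 had 0.33, COL9A3 0.32 and COL11A1 0.40. Without TC at E12, TC at E14 alone stands against both TC+AC samples and is assumed to vary like them. COL9A3 then had -1.92, against -1.40 within E14. Each of these fits leaves 1 sample in a group, so only the size of the difference is given for the members.

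Counts over all genes moved widely. For tissue, 115 genes passed, against 32 as deposited, 24 scaled on hybridization controls, 264 with 16 added, 0 with no dim filter (limma; 715 at an unadjusted p under 0.05), 217 with the lowest 60% left out, 29 with the mean of probe sets, 0 with every probe set tested (1334 unadjusted), 12 with 1 factor, and 0 to 883 without 1 array. For stage, 20 passed, against 0 as deposited (limma; 370 unadjusted), 68 at the same median, 0 on hybridization controls (76), 54 with 16 added, 0 with no dim filter (567), 32 with the lowest 60% left out, 1 with the mean of probe sets, 0 with every probe set tested (810), 0 with 1 factor (235), and 0 to 1 without 1 array. The causes were not tested. No paired analysis was possible because each group has 1 array and the labels carry no replicate numbers. Values near background, as for COL9A2, limit what its differences show.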

Other observations

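Several genes outside the rule for named genes were chosen here after their values were seen. HAPLN1, which encodes the link protein that ties aggrecan to hyaluronan, had normalized intensities of 3490 (E12) and 7269 (E14) in TC, and of 2503 and 3327 in TC+AC, with TC at E14 highest. COL1A1, the main collagen of bone and fibrous tissue, had 11884 and 10629 in TC, and 10145 and 9816 in TC+AC, with the 4 samples within a narrow range near the top of the scale. COL5A1, whose product is related to that of COL11A1, had 2005 and 2901 in TC, and 2034 and 2828 in TC+AC, with no difference between the tissues at either stage above 0.04 on the log2 scale.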
